A study of Mus musculus with 7 samples.

Results

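The transcripts of *Ins1*, *Ins2* and *Iapp* were followed in mouse pancreatic islets after insulin cDNA had been removed. These 3 genes were chosen by name, out of 23465 gene rows, and all 3 were counted in both libraries analysed. For each gene the level left after depletion, the mix of annotated transcripts, the ratio to the other 2 genes and the detection in single cells were measured. The groups were the cell types that the authors had assigned from gene counts, given here as alpha, delta, PP (labelled ppy), endothelial, stellate (labelled quiescent_stellate), macrophage and beta cells.

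The series describes 7 samples in 4 groups, and the tables used here hold the 2 libraries of 1 of them. Both came from islets of female C57BL/6 mice aged 10 weeks, with no allele or treatment stated, isolated with collagenase and dissociated with Accutase, with 4000 cells targeted per library. Cells were captured with a 10x 5' droplet kit under a modified protocol, in which dNTP was added at 2 steps, the extension of step 1.5 lasted 2 h where the standard is 45 min, and the extension of step 2.2 lasted 3 min where the standard is 1 min. Before sequencing on Nanopore long reads, the cDNA was cut with Cas9 and guide RNAs of a commercial insulin depletion panel. The panel's target sites are not given in the sources used here, and *Iapp* is not named among its targets. A sample without depletion is described in the labels but was not analysed here, so the levels before depletion and the share removed were not measured. Separate animals for the 2 libraries are not stated. With the library as a block, p-values measure only how far the differences between types varied between these 2 libraries. That spread may be technical.

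Insulin is made as preproinsulin, which is cut in the endoplasmic reticulum and folded with disulfide bonds, then split by prohormone convertases in the secretory granule into insulin and C-peptide. Mice carry a pair of insulin genes: *Ins2* has the structure of the ancestral gene, and *Ins1* is a retrotransposed copy that lacks the intron inside the coding sequence. Iapp, islet amyloid polypeptide or amylin, is packed in the same granules and released with insulin, and in rodents it is also known from delta cells.

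The start of the coding sequences of *Ins1* and *Ins2* is printed, over 300 aligned positions, because their likeness bears on how reads are shared between the genes. Both were taken from GENCODE M21 on GRCm38 (mm10). The stretch of *Ins1* lies on the plus strand at chr19:52264624-52264917, and that of *Ins2* on the minus strand at chr7:142678746-142679533, a span that includes an intron. Capitals mark bases that differ between the genes or have no partner in the other.
Ins1 coding: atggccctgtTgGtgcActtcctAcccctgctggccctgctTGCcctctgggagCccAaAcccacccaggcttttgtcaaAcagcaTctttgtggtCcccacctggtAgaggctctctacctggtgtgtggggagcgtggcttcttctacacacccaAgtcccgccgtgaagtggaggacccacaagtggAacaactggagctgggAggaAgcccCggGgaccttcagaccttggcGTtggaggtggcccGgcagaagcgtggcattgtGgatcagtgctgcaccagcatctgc
Ins2 coding: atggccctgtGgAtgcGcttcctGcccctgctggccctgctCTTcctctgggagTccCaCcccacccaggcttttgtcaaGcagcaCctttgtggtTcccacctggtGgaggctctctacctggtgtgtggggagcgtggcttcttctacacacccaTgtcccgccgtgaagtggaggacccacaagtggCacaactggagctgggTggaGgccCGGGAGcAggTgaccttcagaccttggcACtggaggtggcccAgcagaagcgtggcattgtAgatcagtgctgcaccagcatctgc
With the stop codon, the whole *Ins1* coding sequence has 327 bases and that of *Ins2* has 333. Of the 333 aligned positions, 302 were identical (90.7%), and 6 bases of *Ins2* had no partner in *Ins1*. The longest run shared by the transcripts Ins1-201 and Ins2-204 was 56 bases. The sources used here do not say how reads matching both genes were counted, so the split between *Ins1* and *Ins2* is uncertain to that extent.

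*Ins1* has a single annotated transcript, Ins1-201, with 2 exons. For *Ins2* the results turn on Ins2-204 and Ins2-201, which use different acceptors for exon 2, and on Ins2-202. Ins2-201 starts exon 2 with 12 more bases, chr7:142679548-142679559 on the minus strand, which lie before the start codon; both transcripts have 333 coding bases. Capitals mark these bases at the join of exons 1 and 2.
Ins2-201 join of exons 1 and 2: gcaggaagCCTATCTTCCAGgttattgttt
Ins2-204 join of exons 1 and 2: gcaggaaggttattgttt
Ins2-202 starts exon 3 151 bases further upstream, at chr7:142678859-142679009, and its annotated coding sequence is 240 bases long. Capitals mark the opening of exon 3 in each, which differs from the end of exon 2 onwards.
Ins2-202 join of exons 2 and 3: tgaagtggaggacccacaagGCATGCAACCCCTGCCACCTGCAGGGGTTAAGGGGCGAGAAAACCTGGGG
Ins2-204 join of exons 2 and 3: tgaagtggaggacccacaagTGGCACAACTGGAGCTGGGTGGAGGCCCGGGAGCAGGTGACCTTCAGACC
*Iapp* lies on the plus strand at chr6:142298423-142303961, with Iapp-201 as its coding transcript. The other, Iapp-202, is annotated as a processed transcript: it reads 135 bases past the end of exon 2, into chr6:142298932-142299066, and has no exon 3. Capitals mark what follows exon 2 in each.
Iapp-202 past exon 2: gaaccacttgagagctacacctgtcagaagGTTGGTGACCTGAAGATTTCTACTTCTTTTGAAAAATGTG
Iapp-201 join of exons 2 and 3: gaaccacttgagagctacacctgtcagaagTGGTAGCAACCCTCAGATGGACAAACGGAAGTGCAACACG

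The 2 libraries held like totals over unlike numbers of cells: 4814 kept cells with a median of 2110 UMIs (unique molecular identifiers, which count molecules) in library 1, and 1093 kept cells with a median of 9949 UMIs in library 2. Only 5 kept cell barcodes occurred in both libraries. The kept cells held 11012364 and 12092393 UMIs in all. Alpha, PP, stellate, macrophage and beta cells carried the markers of their label; beta markers other than the members summed to 888 and 997 CPM (UMIs per 1000000 UMIs) in alpha cells and 6715 and 5431 CPM in beta cells. Stellate cells also held alpha markers, at 19420 and 22059 CPM summed, against stellate markers at 24997 and 13615 CPM. In the delta and endothelial groups some clusters did not carry the markers of their label. Cluster 15, labelled endothelial, held 12 of 141 endothelial cells in library 1 and 16 of 26 in library 2, and its summed duct markers stood at 24979 and 23069 CPM, against 53.5 and 62.2 CPM of endothelial markers. Cluster 16, labelled delta, had 7 cells in each library, with delta markers at 0 and 50.0 CPM and nerve and Schwann cell markers at 17494 and 13284 CPM. Delta clusters 8, 12 and 14 mixed hormones, as described with the results they touch.

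After depletion all 3 transcripts could still be read, at lower levels in the other cell types than in beta cells. *Ins1* had 95.2 and 143 CPM in alpha cells, 986 and 570 CPM in delta cells, 84.2 and 83.4 CPM in PP cells, 231 and 56.6 CPM in endothelial cells, and 230 and 242 CPM in stellate cells, in libraries 1 and 2. *Ins2* had 184 and 338 CPM in alpha cells, 2394 and 1463 CPM in delta cells, 274 and 237 CPM in PP cells, 496 and 87.8 CPM in endothelial cells, and 776 and 373 CPM in stellate cells. *Iapp* had 2324 and 6745 CPM in alpha cells, 46665 and 41933 CPM in delta cells, 5962 and 9503 CPM in PP cells, 3485 and 971 CPM in endothelial cells, and 7367 and 5311 CPM in stellate cells. Both delta values were the highest of these types for each gene. Macrophages were too few for the tests, with 62 and 7 cells. They had 503 and 129 CPM of *Ins1*, 1272 and 419 CPM of *Ins2*, and 14736 and 3678 CPM of *Iapp*. In such sums, fewer expressing cells and less RNA per cell cannot be told apart.

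In beta cells both libraries lay above every value of another type for all 3 genes. *Iapp* was the most abundant of the 3 there, and both insulin transcripts were seen in nearly every cell. *Ins1* stood at 3346 CPM in beta cells of library 1 and 2372 CPM in library 2. *Ins2* stood at 7925 and 6084 CPM there. *Iapp* stood at 118545 and 99038 CPM, or 11.9% and 9.9% of all beta cell UMIs. In both libraries *Ins2* had more UMIs than *Ins1*, and *Iapp* had more than both together. These are levels per UMI and not per length, since every molecule counts once. A median beta cell held 7 *Ins1*, 16 *Ins2* and 261 *Iapp* UMIs in library 1, and 23, 57 and 999 in the more deeply read library 2. At least 1 UMI was seen in 97.2% and 99.8% of beta cells for *Ins1*, in 99.6% and 100% for *Ins2*, and in 100% for *Iapp* in both libraries.

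**Figure D1:**
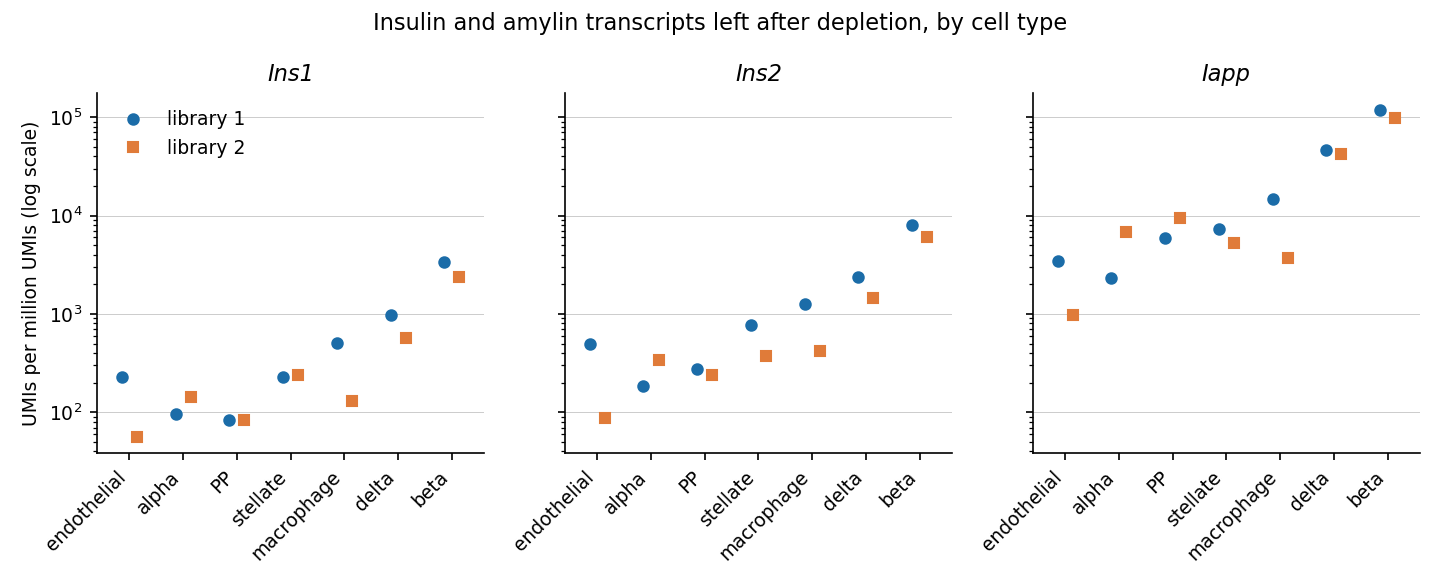
Level of *Ins1*, *Ins2* and *Iapp* in summed UMIs of each cell type, in CPM on a log scale, with 1 point per library and cell types along the horizontal axis. *Iapp* lies at 46665 and 41933 in delta cells and at 118545 and 99038 in beta cells, and in all 3 panels the beta points are the highest.

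Summed counts were tested with edgeR's quasi-likelihood test over 13265 genes, with the library as a block. In alpha cells all 3 genes were lower than in beta cells, where 9.91% of all genes tested were lower and 19% differed in either direction: *Ins1* by a log2 fold change of -4.11 ± 0.36 (SE; adjusted p = 5.06e-10), *Ins2* by -4.23 ± 0.44 (adjusted p = 1.69e-08) and *Iapp* by -4.16 ± 0.60 (adjusted p = 4.68e-06). In PP cells all 3 were lower as well, with log2 fold changes of -4.68 ± 0.38, -4.36 ± 0.45 and -3.41 ± 0.58 for *Ins1*, *Ins2* and *Iapp*, where 8.43% of genes tested were lower and 17.3% differed in either direction. Endothelial cells, where 17.5% of genes tested were lower and 35.9% differed, gave -4.57 ± 0.40, -4.89 ± 0.48 and -5.76 ± 0.65. Stellate cells, where 9.2% were lower and 20.5% differed, gave -3.66 ± 0.40, -3.71 ± 0.46 and -4.17 ± 0.60. Without the 6% of cells with the highest doublet scores, stellate cells gave -4.29, -4.37 and -5.15, and their *Iapp* in library 1 was 1757 CPM in place of 7367 CPM. The adjusted p in the 9 tests with all cells ran up to 8.09e-05. In delta cells, where 5.02% of genes tested were lower and 8.78% higher, *Ins1* (-1.87 ± 0.32, adjusted p = 8.90e-05) and *Ins2* (-1.85 ± 0.40, adjusted p = 0.00121) were lower and *Iapp*, at -1.26 ± 0.53, did not pass the threshold (adjusted p = 0.130). The authors' clusters had been made from the same genes, so these tests are circular in part and cannot show how firmly the types differ. Each library alone gave lower values too, which differed by more than 1.5 times from the joint ones in alpha and endothelial cells: for *Iapp* in alpha cells the log2 fold change was -5.23 in library 1 and -3.48 in library 2, and for *Ins2* in endothelial cells it was -4.16 and -6.18. For *Ins2* in alpha cells the 2 values were -4.99 and -3.77, for *Ins1* in alpha cells -4.69 and -3.65, for *Ins1* in endothelial cells -4.01 and -5.45, and for *Iapp* in endothelial cells -5.25 and -6.74. Without the replicate block the call of *Ins2* in delta cells was lost (-1.84, adjusted p = 0.111).

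Among the types other than beta, the delta group taken whole was higher for all 3 genes, and for insulin this came with its mixed clusters. Its log2 fold change over alpha, PP, endothelial and stellate cells lay between 1.79 and 2.81 for *Ins1*, between 1.85 and 3.04 for *Ins2* and between 2.15 and 4.50 for *Iapp*, with adjusted p up to 0.0135. Between 7.59% and 29.6% of genes tested differed in these comparisons. The remaining 4 types could not be ordered by insulin: no pair among alpha, PP, endothelial and stellate cells passed the threshold for *Ins1* or *Ins2*, where 5.01% (alpha and PP) to 29.6% (alpha and endothelial) of genes tested differed, and 7.12% between endothelial and stellate cells; the lowest adjusted p was 0.126 for *Ins1* between PP and stellate cells. *Iapp* did separate some of them. It was higher in alpha than in endothelial cells by 1.60 ± 0.57 (log2, SE; adjusted p = 0.0327) and higher in PP than in endothelial cells by 2.35 ± 0.57 (adjusted p = 0.00224). The alpha difference was not seen in library 1, where alpha cells had 2324 CPM and endothelial cells 3485 CPM. Over beta cells the log2 values there were -5.23 and -5.25. In library 2 they were -3.48 and -6.74, and 16 of its 26 endothelial cells were of cluster 15. With cluster 15 set aside, the 129 and 10 cells of endothelial cluster 11 had 252 and 110 CPM of *Ins1*, 511 and 157 CPM of *Ins2*, and 3200 and 1410 CPM of *Iapp*.

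In the types with little insulin a small number of cells held much of it. The 5% of alpha cells with the most *Iapp* UMIs held 57.2% and 48.7% of the alpha cells' *Iapp* UMIs in libraries 1 and 2, against 11.3% and 8.4% in beta cells. For *Ins2* the same share was 47.7% and 50.6% in alpha cells, against 13.6% and 10.1% in beta cells. PP cells were alike, at 59.5% and 59.1% for *Iapp*. Such a share rises through counting error alone where UMIs per cell are few, and that part was not measured. A median alpha cell held 1 *Iapp* UMI in library 1 and 25 in library 2, and single alpha cells reached 279 and 1071. The doublet caller Scrublet marked only 6 and 14 cells in all, 0.125% and 1.28% of the kept cells, and these were kept. Without the 6% of cells with the highest doublet scores, *Ins1*, *Ins2* and *Iapp* in alpha cells stood at log2 fold changes of -4.74, -4.89 and -4.84 over beta cells, further below beta than with all cells. The part of free RNA in these counts was not tested.

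The delta group was a mixture of levels. Cluster 3, with 435 and 157 cells and the highest delta markers of the labelled delta clusters, had 348 and 169 CPM of *Ins1*, 805 and 385 CPM of *Ins2*, and 34644 and 37194 CPM of *Iapp*. Cluster 8, with 163 and 76 cells, had 2044 and 1388 CPM of *Ins1*, 4966 and 3654 CPM of *Ins2*, and 83953 and 67521 CPM of *Iapp*. *Sst*, the somatostatin gene, stood at 57624 and 44416 CPM in cluster 8, and the beta markers other than the members at 3380 and 2732 CPM, against 464 and 634 CPM in cluster 3. Insulin in cluster 8 lay nearer to beta cells, and *Iapp* in cluster 3 lay above that of alpha, PP, endothelial and stellate cells and macrophages. Cluster 12, which had *Gcg* (glucagon) at 147578 and 92116 CPM beside *Sst* at 70890 and 52124 CPM, had little insulin, with 58.0 and 165 CPM of *Ins1* and 261 and 393 CPM of *Ins2*, and 15923 and 24527 CPM of *Iapp*. Cluster 14, with only 20 and 10 cells and *Gcg* at 46750 and 36513 CPM, was high in both, with 5208 and 3739 CPM of *Ins2* and 66470 and 64075 CPM of *Iapp*. Cluster 7, with a median of only 929 UMIs per cell in library 1, differed between libraries, at 3626 and 569 CPM of *Ins2*. Without clusters 5, 7, 8 and 12, the delta value of *Ins1* was -3.12 (log2 over beta cells), that of *Ins2* -3.09 and that of *Iapp* -1.57, and the last then passed the threshold (adjusted p = 0.0362). Without clusters 14, 15 and 16 as well, which was chosen after seeing the data, cluster 3 alone stood for delta cells and gave -3.44, -3.53 and -1.47, with adjusted p = 0.00248 for *Iapp*. Stellate cells stood at -3.69 for both insulin genes and at -4.12 for *Iapp* in that fit, so the insulin gap between delta and stellate cells was small there, and it was not tested. Macrophages of library 1, with 503 CPM of *Ins1* and 1272 CPM of *Ins2*, lay above the 348 and 805 CPM of cluster 3.

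Within the beta group the 4 clusters differed more in insulin than in *Iapp*. *Ins2* stood at 8628 and 6505 CPM in cluster 0, 8023 and 6542 CPM in cluster 2, 7818 and 5678 CPM in the shallower cluster 4, and 5377 and 4484 CPM in cluster 5. *Ins1* stood at 3546 and 2422 CPM, 3678 and 2830 CPM, 3294 and 2391 CPM, and 2057 and 1598 CPM in the same order. Cluster 5 was the lowest of the 4 for both insulin genes in both libraries, with 315 and 56 cells. *Iapp* in cluster 5, at 108714 CPM, lay within the range of the other beta clusters of library 1, 100215 to 128475 CPM. In library 2, at 91505 CPM, it was the lowest, just under the 93359 CPM of cluster 4. Cluster 5 also had the highest *Ppy* (pancreatic polypeptide) of the beta clusters, at 6924 and 16715 CPM, and its part in the lower insulin was not tested. These values describe clusters that were drawn from the same genes and have no test.

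The ratio of *Ins1* to *Ins2* was close in delta and beta cells, where most insulin UMIs lay. *Ins1* made up 29.2% and 28.0% of insulin UMIs (*Ins1* plus *Ins2*) in delta cells, against 29.7% and 28.1% in beta cells. In alpha cells it made up 34.1% (exact binomial 95% interval 30.1 to 38.3%) and 29.7% (27.0 to 32.5%). These intervals cover counting error only, since UMIs of 1 cell are not independent. PP cells had 23.5% and 26.02%, endothelial cells 31.8% and 39.2%, and stellate cells 22.9% and 39.3%, with intervals that were wider because few UMIs stood behind them, such as 131 insulin UMIs in stellate cells of library 1. Among the cell types, only alpha cells and PP cells of library 1 had an interval that left out the beta value of their library, above it in alpha cells and below it in PP cells, and in library 2 no type did. Within the beta group the *Ins1* share was highest in cluster 2, at 31.4% and 30.2%, and lowest in cluster 5, at 27.7% and 26.3%. Cluster 2 thus lay above cluster 5 in both libraries.

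**Figure D2:**
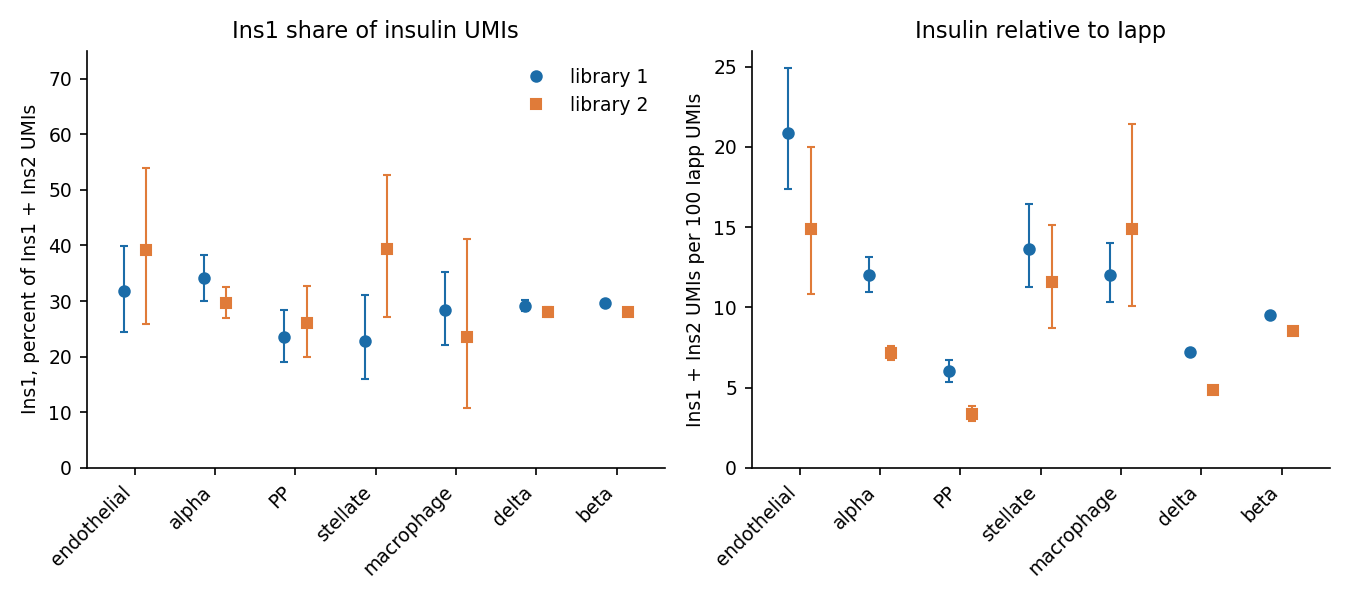
Left, *Ins1* as a percentage of *Ins1* plus *Ins2* UMIs; right, *Ins1* plus *Ins2* UMIs per 100 *Iapp* UMIs, by cell type and library. Bars are exact binomial 95% intervals, which cover counting error only. The *Ins1* share lies at 28.0 to 29.7% in delta and beta cells, while insulin per 100 *Iapp* UMIs runs from 3.37 in PP cells of library 2 to 20.9 in endothelial cells of library 1.

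The ratio of insulin to *Iapp* was not constant. Delta cells had 7.24 and 4.85 insulin UMIs per 100 *Iapp* UMIs in libraries 1 and 2, PP cells 6.02 and 3.37, and alpha cells 12.02 and 7.14. Endothelial cells had 20.9 and 14.9, stellate cells 13.7 and 11.6, and macrophages 12.05 and 14.9. Beta cells had 9.51 and 8.54. Delta and PP cells thus lay below beta cells of the same library, and the 3 types that are not endocrine lay above, in both libraries, while alpha cells lay above in library 1 and below in library 2. In the transcript table alpha cells lay below beta cells in both libraries, at 5.98 and 4.43, against 6.79 and 6.10 in beta cells. Without the 6% of cells with the highest doublet scores the stellate value of library 1 was 28.8. Within the delta group, cluster 3 had 3.33 and 1.49 insulin UMIs per 100 *Iapp* UMIs and cluster 12 had 2.00 and 2.28, against 8.35 and 7.47 in cluster 8. Beta cluster 5 had 6.84 and 6.65, below the 8.64 to 11.1 of the other beta clusters. The ratios of 1 library differed beyond their counting intervals, which in library 1 ran from 3.14 to 3.53 in cluster 3, from 17.4 to 24.9 in endothelial cells and from 9.43 to 9.59 in beta cells. Without clusters 5, 7, 8 and 12 delta cells had 3.32 (mean of 2 libraries).

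To compare single cells across the 2 depths, every cell was thinned to 1000 UMIs, which left out 59 alpha, 165 delta, 56 endothelial, 76 stellate, 1 PP and 95 beta cells of library 1 and none of these types in library 2. *Ins1* was then detected in 8.31% and 13.4% of alpha cells, 33.0% and 28.3% of delta cells, and 91.5% and 85.5% of beta cells. *Ins2* was detected in 14.1% and 20.1% of alpha cells, 44.4% and 43.7% of delta cells, and 98.7% and 98.4% of beta cells. *Iapp* was detected in 52.4% and 91.2% of alpha cells, 98.0% and 98.7% of delta cells, and in all beta cells. Endothelial cells, which should lack these genes, had *Ins2* in 22.4% of 85 cells of library 1 and in 0 of 26 cells of library 2, where the exact binomial interval reaches 13.2%, and *Iapp* in 37.6% and 50.0%. Their median depths before thinning were 1121 and 10417 UMIs. The share of alpha cells with *Ins2* was thus not above that of endothelial cells in library 1, but was above it in library 2. Of the 26 endothelial cells of library 2, 16 were of cluster 15, which carried duct markers and few endothelial ones. That comparison thus rests on few endothelial cells. Stellate cells had *Ins2* in 31.0% and 44.4%. They also held *Gcg* at 16908 and 17061 CPM, against 1110 and 2490 CPM in beta cells. The part of free RNA in these shares was not tested. Without thinning, at median depths of 1959 and 8917 UMIs, *Ins2* was seen in 24.0% and 74.9% of alpha cells, against 99.6% and 100% of beta cells.

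*Ins1* and *Ins2* occurred in the same cell more often than their separate shares gave in alpha, delta and PP cells. In delta cells both were detected in 28.0% and 23.0%, where the product of the separate shares was 14.6% and 12.4%, a ratio of 1.91 and 1.86. In alpha cells both were detected in 2.33% and 5.86%, where the product was 1.17% and 2.69%, a ratio of 1.99 and 2.18, and in PP cells the ratio was 2.53 and 2.73. Endothelial cells of library 1 gave 2.98 and stellate cells 2.69 and 0.90, from few cells. In beta cells both were detected in 90.9% and 84.8%, where the product was 90.4% and 84.1%. Nearly all beta cells had *Ins2* at this depth, so the observed share could hardly exceed the product there. The beta values are thus no contrast with the other types. Of delta cells with *Ins2*, 63.1% and 52.5% also had *Ins1*, against 8.99% and 9.50% of delta cells without *Ins2*. Within these groups taken whole, cells that held one insulin transcript thus tended to hold the other, within the same library and at the same depth. The delta group joined clusters of unlike insulin level, with *Ins2* in library 1 at 805 CPM in cluster 3 and 4966 CPM in cluster 8. The part of such mixing, and of doublets, in these ratios was not tested. The ratio of observed share to product was lower at 2000 UMIs, at 1.35 in alpha cells and 1.53 in delta cells (means of 2 libraries, which at 1000 UMIs were 2.08 and 1.88). Cells with fewer UMIs than the depth were left out, and median depths in library 1 were 1959 UMIs in alpha and 2015 in delta cells. Depth and the set of cells thus changed together.

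**Figure D3:**
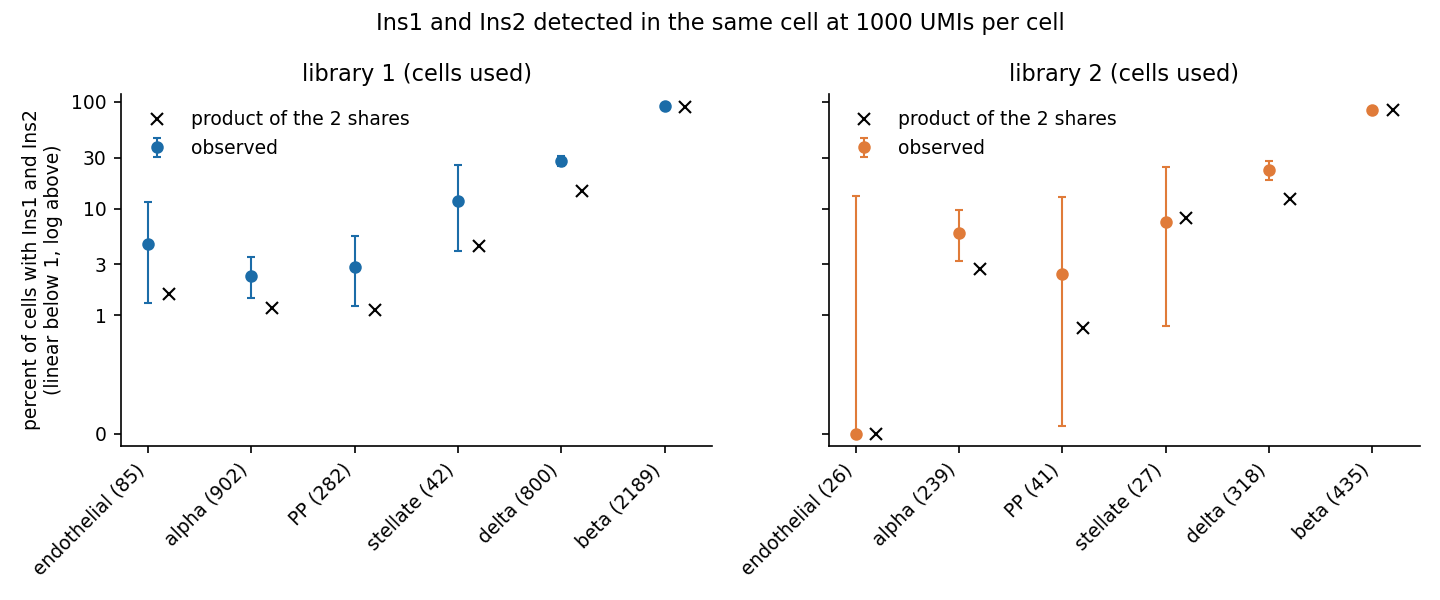
Percentage of cells with both *Ins1* and *Ins2* after thinning to 1000 UMIs, by cell type, with 1 panel per library and the number of cells in brackets. Circles are observed shares with exact binomial 95% intervals and crosses the product of the 2 separate shares; the axis is linear below 1% and logarithmic above. In delta cells the observed 28.0% and 23.0% lie above products of 14.6% and 12.4%. In beta cells circles and crosses coincide, where near-complete detection of *Ins2* leaves little room for a gap.

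Beta cells varied in how much insulin message they held. At 1000 UMIs, a beta cell of library 1 held 3.29 ± 2.31 *Ins1*, 7.99 ± 4.44 *Ins2* and 117 ± 32.5 *Iapp* UMIs (mean ± SD over 2189 cells of 1 library). In library 2 it held 2.43 ± 1.82, 6.16 ± 3.02 and 106 ± 39.9 (435 cells). The variance was 1.62 and 1.36 times the mean for *Ins1* and 2.47 and 1.48 times the mean for *Ins2*, where a ratio of 1 is counting error alone. The variance of the *Ins1* share was 1.07 and 1.03 times the binomial value, so at this depth the split between the 2 genes varied little from cell to cell beyond counting. Across beta cells, *Ins1* and *Ins2* UMIs had a Pearson correlation of 0.44 and 0.30, and *Ins2* and *Iapp* UMIs one of 0.24 and 0.21. The cells share a library and a fixed total, and these correlations are given as a description.

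Among the *Ins2* UMIs that reached an annotated transcript, the mix was close across the endocrine types. In alpha cells of library 1 these were 75 UMIs, against 352 in the gene table, and the mix of the rest is not known. Ins2-204 made up 82.7% and 83.0% of *Ins2* transcript UMIs in alpha cells, 79.9% and 80.8% in delta cells, 82.7% and 84.1% in PP cells, and 81.6% and 81.2% in beta cells. Ins2-201, with its 12 extra bases, made up 14.7% and 13.6% in alpha cells, 16.4% and 15.5% in delta cells, 16.4% and 13.4% in PP cells, and 15.6% and 16.3% in beta cells. In beta cells Ins2-202 held 0.94% and 0.88%, Ins2-203 0.79% and 0.74%, and Ins2-206, which has a first exon far upstream, 0.80% and 0.56%. Ins2-205, which keeps intron 1, held 0.26% and 0.32% there. By edgeR's test of transcript usage *Ins2* passed the threshold in none of the 5 types against beta cells (adjusted p of at least 0.991 for each transcript), where the share of genes tested that passed was 0.993% in alpha, 0.816% in delta, 0.691% in PP, 1.88% in endothelial and 1.08% in stellate cells. The lowest unadjusted p of its 2 tested transcripts in any type was 0.591, so 0 lay under 0.05, and the tests without the replicate block and with transcripts from 1% of the gene made 0 calls as well. *Ins1* and *Iapp* had fewer than 2 transcripts past the filter and no such test. The differences in share for Ins2-204 were 1.44 percentage points in alpha minus beta cells and -1.02 in delta minus beta cells, as means of the 2 libraries. In endothelial and stellate cells 12 to 50 transcript UMIs stood behind the shares, and a difference was not detectable at that depth.

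**Figure D4:**
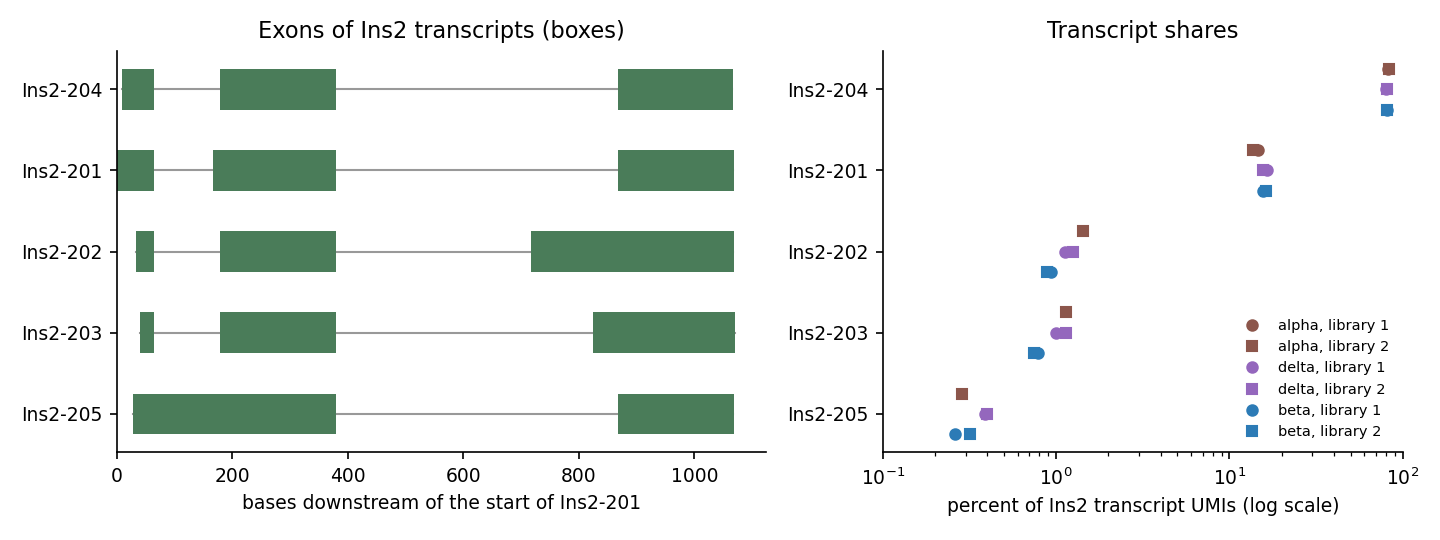
Left, exons (boxes) of 5 *Ins2* transcripts, in bases downstream of the start of Ins2-201; right, share of *Ins2* transcript UMIs in alpha, delta and beta cells of each library, on a log scale. Shares of 0 are not drawn. Ins2-204 lies between 79.9% and 83.0% in alpha and delta cells and at 81.6% and 81.2% in beta cells.

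*Iapp* was read almost only as its coding transcript. Iapp-202 made up 0.09% and 0.07% of *Iapp* transcript UMIs in alpha cells, 0.22% and 0.11% in delta cells, and 0.11% and 0.09% in beta cells. Delta cluster 7 and beta cluster 4 had higher shares. In delta cluster 7 Iapp-202 made up 1.01% (129 of 12751 UMIs) and 1.10% (44 of 4015 UMIs), and mitochondrial UMIs were 1.66% and 3.59% there, against 0.88% and 1.66% in delta cluster 3. In beta cluster 4 it made up 0.28% and 0.23%, with mitochondrial UMIs at 1.88% and 5.17%, against 0.08% and 0.07% in cluster 0, where mitochondrial UMIs were 1.60% and 3.75%. Within the beta group, cluster 4 thus had more mitochondrial UMIs and a higher Iapp-202 share than cluster 0 in both libraries. Across types, beta cluster 0 of library 2 had more mitochondrial UMIs than delta cluster 7 and a lower Iapp-202 share. The part of RNA quality in these shares was not tested. Ins2-202 made up 2.16% and 3.30% in delta cluster 3 (5 of 231 and 9 of 273 UMIs), against 0.94% and 0.88% in beta cells. In delta cluster 7 it made up 0.896% and 19.05%, the second from 8 of 42 UMIs (exact binomial interval 8.60 to 34.1%). *Iapp* overlaps the gene *Slco1a5* on the opposite strand, and the sources used here do not say whether counting used strand; *Slco1a5* held 3 and 8 UMIs in delta cells and 9 and 16 in beta cells.

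The transcript table held far fewer *Ins2* UMIs than the gene table, unlike for the other 2 genes. For *Ins2* it held 21.3% and 45.5% of the gene table's UMIs in alpha cells and 42.1% and 56.0% in delta cells, against 58.0% and 59.7% in beta cells. For *Ins1* it held 104% and 101% in alpha cells, against 103% and 101% in beta cells. For *Iapp* it held 99.7% and 99.9% in alpha cells, against 99.9% in beta cells of both libraries. Among 2141 genes with at least 100 UMIs in alpha and in beta cells of library 1, only 10 had a lower value of alpha minus beta than the -36.7 percentage points of *Ins2*, and in library 2, at -14.2 points, 44 of 2766 did. In delta cells the difference was -15.9 and -3.70 points, with 42 of 3780 and 476 of 5462 genes lower. For alpha cells the median over those genes was -0.87 and 0.71 points. The level of *Ins2* in beta cells was less unusual than this difference. Of the genes compared with alpha cells, 707 of 2141 and 954 of 2766 had a lower percentage than *Ins2* in beta cells. The median percentage of those genes in beta cells was 83.8% and 81.1%. The *Ins2* share also varied with the number of *Ins2* UMIs per cell. In library 1, cells of types other than delta and beta had 22.5% at 1 or 2 UMIs and 49.3% at 6 to 20. Delta cells had 28.2% at 1 or 2 UMIs, 45.2% at 6 to 20 and 40.2% at 21 or more, against 50.0% (of 36 UMIs), 63.5% and 54.0% in beta cells. In library 1 the types thus differed at 1 or 2 and at 6 to 20 UMIs per cell. At 21 or more, types other than delta and beta had 54.3% (127 UMIs in 4 cells), close to beta cells but not to delta cells. In delta and beta cells the share was lower again at 21 or more than at 6 to 20. In library 2 the types other than delta and beta had 39.1% at 1 or 2 UMIs and 41.9% at 6 to 20, against 36.7% in the 13 beta cells with 6 to 20. At 21 or more the types of library 2 were alike, with 56.8% in those other types, 57.9% in delta cells and 59.9% in beta cells. Counted in the transcript table, *Ins1* made up 60.1% of insulin UMIs in alpha cells, 45.9% in delta cells and 41.3% in beta cells (means of 2 libraries). In library 1 it made up 71.7% in alpha cells and 50.4% in delta cells there, against 42.8% in beta cells. In library 2 it made up 48.5% in alpha cells and 41.5% in delta cells, against 39.8% in beta cells. The *Ins1* shares of delta and beta cells thus lay apart in library 1 of that table and nearer in library 2.

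**Figure D5:**
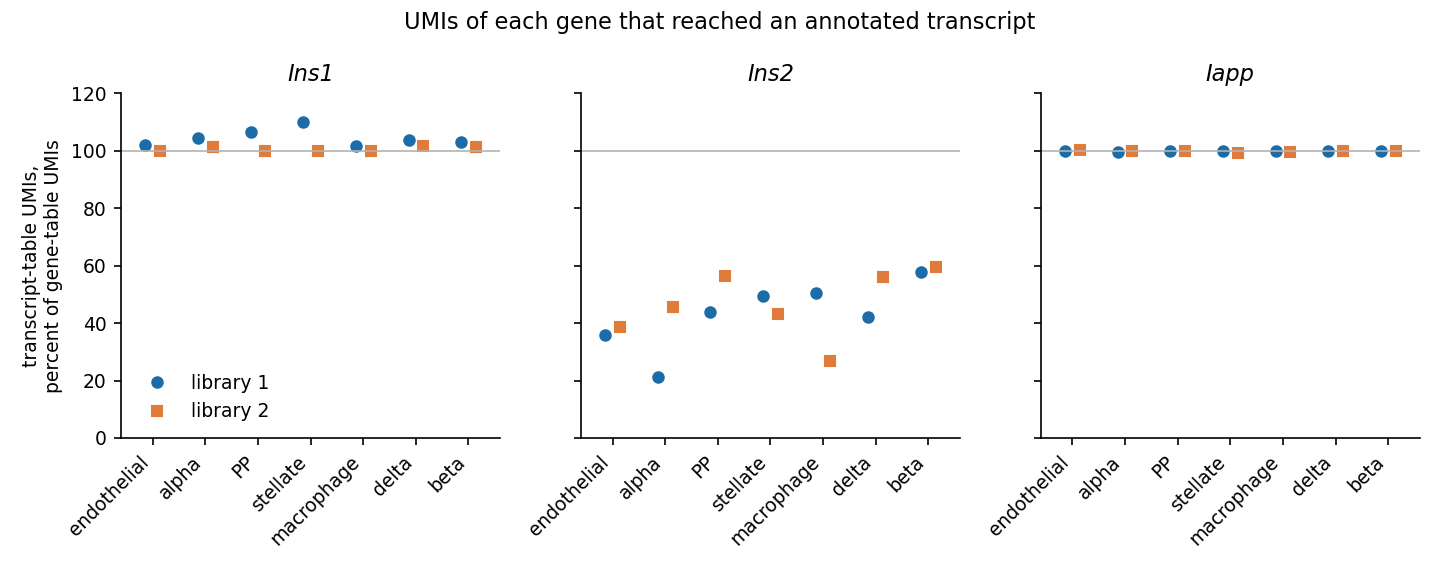
UMIs of each gene in the transcript table as a percentage of its UMIs in the gene table, by cell type and library; the grey line is 100%. *Ins1* and *Iapp* lie near 100% in every type, and *Ins2* lies between 21.3% in alpha cells of library 1 and 59.7% in beta cells of library 2.

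The genes whose level over the 12 sums (6 cell types in 2 libraries) was most like that of the insulin genes were named as a description. For *Ins1* they were *Prss53* (Pearson correlation of log2 CPM of 0.99), *Ins2* (0.98), *Glp1r*, the receptor of the incretin GLP-1 (0.97), *Prlr*, the prolactin receptor (0.97), and *G6pc2*, the glucose-6-phosphatase of beta cells (0.96), out of 3219 genes. For *Ins2* they were *Ins1* (0.98), *Prss53* (0.98), *Ppp1r1a*, an inhibitor of protein phosphatase 1 (0.98), *Prlr* (0.98) and *G6pc2* (0.98). For *Iapp* they were *Ppp1r1a* (0.98), *Spock2* (0.98), *Acly*, which makes cytosolic acetyl-CoA (0.97), *Pclo* (0.97) and *Prlr* (0.96). *Iapp* itself came 24th for *Ins1* and 12th for *Ins2*. *Prss53* had at most 285 CPM in any sum of another type, against 1336 and 958 CPM in beta cells. The 12 sums share 2 libraries.

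Genes that act around insulin differed between the types in part. Of 13 transcription factors of the insulin genes, 6 were lower and 1 was higher in alpha than in beta cells, where 9.91% of genes tested were lower and 9.11% higher. *Nkx6-1*, which keeps beta cell identity, had 30.9 and 26.7 CPM in alpha cells, against 376 and 358 CPM in beta cells (log2 fold change -3.25 ± 0.23 SE). *Mlxipl*, a glucose-responsive factor, had 16.7 and 22.3 CPM, against 299 and 375 CPM (-3.68 ± 0.28). For both genes, the alpha values of both libraries lay apart from the beta values. In delta cells 5 of the 13 factors were lower and 1 was higher, in PP cells 7 and 1, in endothelial cells 10 and 1, and in stellate cells 12 and 0. Of all genes tested 5.02%, 8.43%, 17.5% and 9.2% were lower in the same order, and 8.78%, 8.89%, 18.4% and 11.2% higher. Without the replicate block 1 of the 13 was lower and 0 were higher in delta cells, and 5 and 1 in alpha cells.

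For prohormone conversion, 1 of 6 genes was lower and 1 higher in alpha cells. *Pcsk1*, the convertase that makes the first cut of proinsulin, had 6.28 and 21.4 CPM in alpha cells, against 306 and 222 CPM in beta cells (log2 fold change -3.74 ± 0.35 SE, adjusted p = 2.31e-09). *Pam*, which amidates the end of amylin, was higher at 545 and 443 CPM, against 476 and 289 CPM (0.83 ± 0.24, adjusted p = 0.0149). *Pcsk2*, the other convertase, had 4843 and 4008 CPM in alpha cells, against 3428 and 3033 CPM in beta cells, and did not pass the threshold (adjusted p = 0.0701). Of 10 granule and zinc genes 1 was lower, *Scg2* (-1.79 ± 0.33), and 1 was higher, *Vgf* (2.93 ± 0.35), while *Scg3* did not pass (-0.70 ± 0.30, adjusted p = 0.105). These counts are near the shares of all genes tested, 9.91% lower and 9.11% higher. Both *Scg2* and *Vgf* encode granins, proteins of the granule core.

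Of 18 genes for the folding of proinsulin in the endoplasmic reticulum, 10 were lower and 1 was higher in alpha cells. Of all genes tested 9.91% were lower and 9.11% higher there. *Ero1lb*, an oxidase that drives disulfide formation, had 108 and 191 CPM in alpha cells, against 1748 and 1646 CPM in beta cells (log2 fold change -3.11 ± 0.28 SE, adjusted p = 1.13e-09). *Sdf2l1*, which acts with chaperones there, was lower at 58.6 and 120 CPM, against 428 and 434 CPM, and *Prdx4*, a peroxiredoxin of the same compartment, was higher at 80.0 and 112 CPM, against 44.6 and 36.0 CPM. In delta and PP cells 3 and 4 of the 18 were lower, and 1 was higher in each. Of all genes tested 5.02% and 8.43% were lower in these types, and 8.78% and 8.89% higher. The median log2 fold change of the list in alpha cells was -0.69, beside 0.02 over all genes tested. Without TMM scaling the median of all genes moved to -0.39 in alpha and -0.41 in PP cells, 3321 genes were then lower and 709 higher in alpha cells (1314 and 1208 with it), and 16 of the 18 genes were lower. Without the replicate block 2 of the 18 were lower in alpha cells.

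Of 11 genes of glucose sensing and insulin release, 6 were lower in alpha, 7 in delta, 8 in PP, 11 in endothelial and 10 in stellate cells, and none was higher. The shares of all genes tested that were lower were 9.91%, 5.02%, 8.43%, 17.5% and 9.2% in the same order. *Trpm5*, a calcium-activated channel, had 4.71 and 25.8 CPM in alpha cells, against 645 and 574 CPM in beta cells (log2 fold change -4.89 ± 0.38 SE). *Ucn3*, a peptide released with insulin, had 5.23 and 37.2 CPM, against 894 and 860 CPM (-5.01 ± 0.41), and *Glp1r* had 8.89 and 39.8 CPM, against 611 and 580 CPM (-4.22 ± 0.37). In all 3 genes the 2 alpha values lay far below the 2 beta values. Of 16 genes of insulin and amylin action 13 were tested, of which 3 were lower and 2 higher in alpha cells. Of all genes tested 9.91% were lower and 9.11% higher there. *Insrr*, a receptor of the insulin receptor family, had 21.4 and 17.9 CPM, against 203 and 207 CPM, and *Igf1r*, the receptor of insulin-like growth factor 1, had 36.1 and 25.4 CPM, against 124 and 125 CPM. *Calca*, whose products calcitonin and CGRP belong to the amylin family, was higher at 11.5 and 16.2 CPM, against 0.735 and 0.228 CPM in beta cells.

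The other islet hormones give the scale of the members. *Gcg*, not named in the depletion panel, made up 30.4% and 16.6% of the UMIs of alpha cells, and stood at 1110 and 2490 CPM in beta cells. *Pyy* stood at 14721 and 26497 CPM in alpha cells, against 682 and 2201 CPM in beta cells, and *Ppy* at 11902 and 11807 CPM, against 1134 and 2932 CPM. *Sst* stood at 93697 and 68216 CPM in delta cells, against 667 and 981 CPM in beta cells. *Ghrl*, the ghrelin gene, did not pass the filter on low counts. It was seen mainly in library 1, at 309 and 0.233 CPM in delta cells and at 3839 and 0 CPM in delta cluster 12.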

How the data were processed

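Per the labels' protocols, cDNA from a 10x 5' kit was depleted with an insulin guide panel and sequenced on Nanopore. The authors deposited raw UMI counts per gene and per transcript and tables of kept cells with clusters and cell types; Seurat and mm10 are named in the submitters' processing notes, while the aligner, counting tool and use of strand are not given in the sources used here. Counts of kept cells were summed by cell type and library (6 types with at least 20 cells in each of 2 libraries, 12 sums). Sums were tested with edgeR 4.0.16 (filterByExpr, TMM, quasi-likelihood test, cell type plus library, Benjamini-Hochberg adjustment over all 13265 genes, threshold 0.05) in R 4.3.3. Transcript usage was tested with diffSpliceDGE on transcripts with at least 10 UMIs and 5% of their gene. The test steps were tested on simulated data.

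The library is a block because all types of a library share it; library deviations of the types correlated at 0.0878 to 0.475 over 15 pairs of types. Scrublet in scanpy 1.11.5 scored doublets; shares and co-detection used cells thinned to 1000 UMIs in numpy 2.4.6, with exact binomial 95% intervals from scipy 1.17.1. Intervals cover counting error only. Transcript names are GENCODE M21. Alternatives included DESeq2 1.42.0. The members and lists were chosen with earlier results of these data known. The text names the members, the other islet hormones, the 5 genes most correlated with each member among genes with a mean above 50 CPM, up to 3 genes per list with the lowest adjusted p in alpha against beta cells, and member transcripts with at least 1% of the gene in any type; other clusters and transcripts named were chosen after their values were seen. 1 listed gene that the rule names is not reported here.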

Additional observations from a re-analysis of the deposited data

Results flagged for a closer look

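Barcodes that the authors' cell table left out, 1581 in library 1 and 1031 in library 2, still held the 3 transcripts; these data entered no comparison. *Ins1* stood there at 2546 and 445 CPM, *Ins2* at 6035 and 1046 CPM, and *Iapp* at 64362 and 16811 CPM. In all kept cells *Ins1* stood at 1895 and 1099 CPM, *Ins2* at 4502 and 2810 CPM, and *Iapp* at 69517 and 52668 CPM. The left-out barcodes had a median of 651 and 3178 UMIs and 3.63% and 8.42% mitochondrial UMIs.

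The minor transcripts made up more of their gene in these barcodes. Ins2-202 made up 1.73% and 15.2% of *Ins2* transcript UMIs, against 0.94% and 0.88% in beta cells, and Iapp-202 made up 0.273% and 2.79% of *Iapp* transcript UMIs, against 0.11% and 0.09% in beta cells. The part of RNA quality in these shares was not tested.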

How the results depend on the processing

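Of the level comparisons with beta cells 14 of 15 passed the threshold. Without the replicate block 13 did: *Ins2* in delta cells stood at -1.84 (adjusted p = 0.111), and 15 listed genes passed in delta cells; all genes lower in delta cells then numbered 196 and higher 666, against 666 and 1165 with it, and in alpha cells 665 and 616, against 1314 and 1208. *Iapp* in delta cells passed without the low count filter (-1.30, adjusted p = 0.00217), without clusters 5, 7, 8 and 12 (-1.57, adjusted p = 0.0362) and without clusters 14, 15 and 16 as well (-1.47, adjusted p = 0.00248), which was chosen after seeing the data; its adjusted p was 0.355 without the block. The cause was not tested. Leaving out each library gave values between -5.23 and -3.48 for *Iapp* in alpha cells and between -1.96 and -1.75 for *Ins2* in delta cells, with no test since 1 library was left.

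In the transcript table *Ins1* made up 60.1% of insulin UMIs in alpha, 45.9% in delta and 41.3% in beta cells, insulin per 100 *Iapp* UMIs was 5.21, 3.85 and 6.44, and *Ins2* averaged 4114 CPM in beta cells, since that table holds fewer *Ins2* UMIs. For delta cells the *Ins1* share was 29.5% after thinning and 30.3% without the 7 clusters, and insulin per 100 *Iapp* UMIs was 3.32 without 4 and 2.41 without 7 clusters. Observed over independent co-detection at 500 UMIs, 2000 UMIs and without thinning was 2.57, 1.35 and 1.41 in alpha cells, 2.23, 1.53 and 1.30 in delta cells, and 1.02, 1.00 and 1.00 in beta cells; without clusters 5, 7, 8 and 12 it was 2.38 in delta and 1.00 in beta cells. The tested level differences kept their direction under these alternatives. Untested orders did not all hold: in the transcript table of library 1, alpha cells had fewer insulin UMIs per 100 *Iapp* UMIs than beta cells (5.98 against 6.79; 12.02 against 9.51 in the gene table), and the *Ins1* share of delta cells was above that of beta cells (50.4% against 42.8%; 29.2% against 29.7%). In library 2 of the transcript table the *Ins1* shares of delta and beta cells were nearer, at 41.5% and 39.8%. Without the highest doublet scores insulin per 100 *Iapp* UMIs in stellate cells of library 1 was 28.8, against 13.7 with all cells. In types with few insulin UMIs, depth limits the shares and transcript mix.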
